A study of Mus musculus with 4 samples.

Results

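The 34 genes described here are genes of macrophages and other myeloid cells, followed in mouse melanomas before and after an inducible NRAS was switched off. They were chosen by gene symbol, 34 of the 18193 genes that had at least 1 probe set with a single symbol in the platform annotation, and all 34 were on the array. For each gene the brightest of its probe sets was used, and 33 of the 34 passed a filter on low levels, a mean intensity over the 4 arrays of at least 24.9. Cd163, a receptor for haemoglobin bound to haptoglobin, did not pass.

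Macrophages arise from monocytes or from precursors seeded before birth, and depend on CSF1 receptor signalling and on the transcription factor PU.1. They take up dead cells, debris and antibody-coated particles through scavenger, complement and Fc receptors, digest them in lysosomes and can produce superoxide with the phagocyte NADPH oxidase. In solid tumours they are often the most abundant host immune cell, and in a transplanted tumour of this kind they come from the host mouse.

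Tumours were grown by injecting iNRAS-475 cells, a mouse melanoma line in which NRAS depends on doxycycline, into the skin of nude mice that drank water with 2 mg/ml doxycycline for 6 weeks, until tumours measured 200 to 500 mm3. One tumour was taken while the drug was still given (on), and 1 each at 24, 48 and 72 h after it was withdrawn (off). Skin was trimmed away, about 50 mg of tumour was frozen, and RNA was hybridised to an Affymetrix mouse array. Nude mice lack a thymus and so most T cells, but they keep macrophages, other myeloid cells, B cells and natural killer cells. Animal age was not given, and all tumours came from 1 cell line.

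There was 1 array per condition, so no difference below has a replicate error or a test, and animal, tumour piece and time cannot be told apart. Precision is limited by having 4 arrays. Their medians over 45037 probe sets were nearly equal, 33.3 at the lowest. Intensities are linear. A difference is that of log2(intensity + 32), a scale that shrinks the differences of dim genes, and "2-fold higher" means a difference of at least 1 on that scale. The brightest mouse Nras probe set read 163 on doxycycline and 256, 163 and 163 at 24, 48 and 72 h. It does not check the labels, since the sequence of the inducible NRAS was not known here.

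Cd68, Csf1r and Adgre1 were set as the macrophage markers. They are members themselves, so they are no independent check of what the members' signal is. Csf1r, the receptor for the growth factors CSF1 and IL-34, had an intensity of 708 on doxycycline, then 1103 at 24 h, 837 at 48 h and 2318 at 72 h. Adgre1, which encodes F4/80, a surface protein used to recognise mouse macrophages, read 187, 225, 242 and 389 in the same order. Cd68, a lysosomal membrane protein abundant in macrophages, read 166 on doxycycline, then 172 at 24 h, 436 at 48 h and 525 at 72 h. All 3 genes were well above the filter level on every array, and all 3 were highest at 72 h. From 24 to 48 h Csf1r had a difference of -0.38, but Cd68 and Adgre1 had differences of 1.20 and 0.10. Of the 33 members past the filter, 25 were lower over that step. In bulk tissue, more macrophages and more RNA of these genes per macrophage cannot be told apart.

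As a group, the genes were higher off doxycycline than on it at each time, with the greatest difference at 72 h and the smallest at 48 h. At 24 h off, 31 of the 33 genes past the filter were above the on array, 1 was below and Mrc1 was equal. Among all 13522 genes past the filter, 49.0% were above and 43.0% below. The median difference was 0.45 for the members and 0.00 for all genes. At 48 h off, 23 of 33 were above (45.3% of all genes), 9 were below (45.5%) and the median was 0.24. At 72 h off, 32 of 33 were above (46.8% of all genes) with a median of 0.84. The 1 below was Fcgr1 (43.7% of all genes). The median over all genes was 0.00 at both later times too. With Cd163 included, over all 34 members, the medians were 0.41, 0.24 and 0.78.

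A 2-fold higher value was found for 5 members at 24 h, 3 at 48 h and 11 at 72 h. None of the 33 was 2-fold lower at any time. Over all genes the shares that were 2-fold higher were 0.266%, 0.754% and 2.29% in turn, and the shares that were 2-fold lower were 0.0666%, 1.04% and 1.63%. The 5 at 24 h were Lyz2, Cybb, Ctss, Ptprc and Clec7a. The 3 at 48 h were Cd68, Cybb and Lcp1. The 11 at 72 h were Cd68, Mpeg1, Lyz2, Csf1r, Cybb, Fcgr3, Tyrobp, C1qb, Ptprc, Clec7a and Lcp1. The comparisons share the on array, so its own deviation enters each of them. With a pseudocount 4 times as large, which shrinks differences further, the counts were 1, 0 and 7. The shares over all genes were not computed at that pseudocount, so these counts cannot be set against the shares above.

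**Figure D1:**
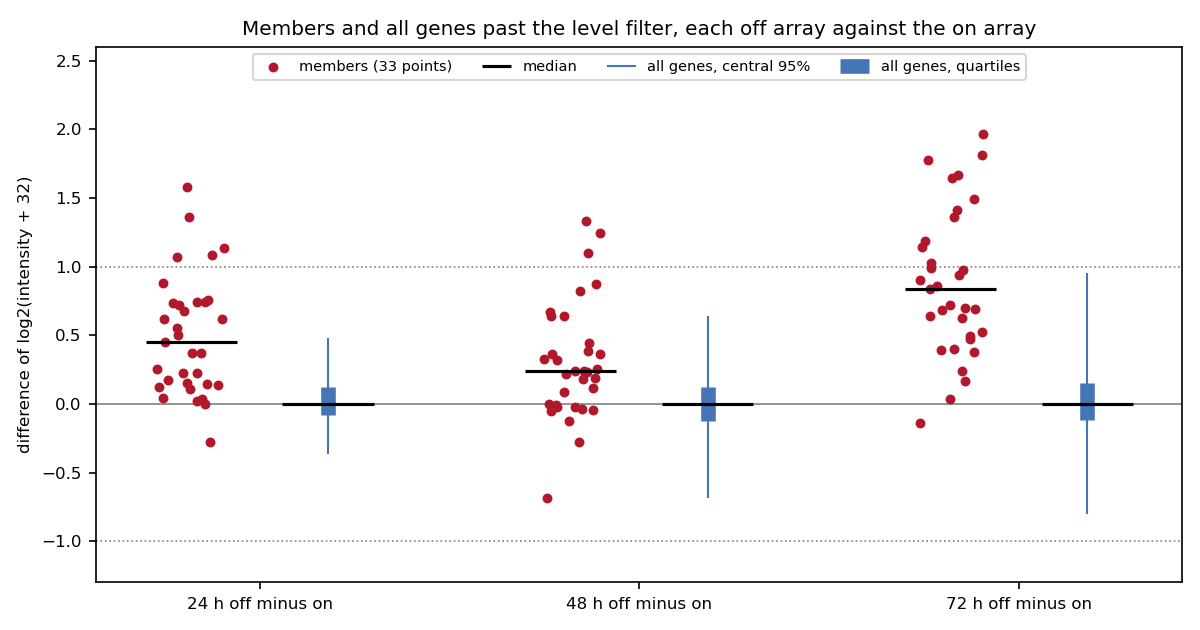
Difference of log2(intensity + 32) between each off array and the on array, with 1 point for each of the 33 members past the filter (left of each pair) and the quartiles and central 95% of all 13522 genes past the filter (right). Black lines are medians and dotted lines mark a difference of 1 in size; the members' medians are 0.45, 0.24 and 0.84, those of all genes 0.00.

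PU.1, the product of Spi1, binds DNA at sites with the core letters GAGGAA. Promoter windows from 250 bases before to 50 bases after a gene's start were taken from a set based on RefSeq (build GRCm38.p6). The set held windows for 24 of the 34 members. The other 10 were not searched, and their absence does not mean that RefSeq lacks them. GAGGAA was present on either strand in 15 of these 24 genes (62.5%), against 31.3% of all 27025 genes with such windows. Both shares count a match anywhere in the window. Windows of 9 of the 11 members that were 2-fold higher at 72 h were used, those of Csf1r and Tyrobp not; 5 of the 9 had a match upstream of the start, and the 100 bases that hold it are shown, 5′ to 3′ on the gene's strand, with the match in capitals (TTCCTC where it lies on the other strand). Lyz2, with no match in its window, is shown for comparison. The share of all genes with a match upstream of the start was not computed, so the 5 of 9 has no background to set it against. A match is a description of the letters only.
Clec7a, chr6:129472780-129472879, minus strand, positions -100 to -1: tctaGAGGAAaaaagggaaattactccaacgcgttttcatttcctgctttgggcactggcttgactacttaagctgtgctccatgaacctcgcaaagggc
C1qb, chr4:136886201-136886300, minus strand, positions -100 to -1: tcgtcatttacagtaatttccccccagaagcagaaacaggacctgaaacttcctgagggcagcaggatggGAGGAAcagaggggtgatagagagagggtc
Fcgr3, chr1:171059404-171059503, minus strand, positions -100 to -1: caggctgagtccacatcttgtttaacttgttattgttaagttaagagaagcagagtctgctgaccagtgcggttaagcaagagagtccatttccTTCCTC
Ptprc, chr1:138175406-138175505, minus strand, positions -200 to -101: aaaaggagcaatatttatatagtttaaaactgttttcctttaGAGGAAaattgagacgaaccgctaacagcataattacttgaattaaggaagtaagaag
Cd68, chr11:69666321-69666420, minus strand, positions -250 to -151: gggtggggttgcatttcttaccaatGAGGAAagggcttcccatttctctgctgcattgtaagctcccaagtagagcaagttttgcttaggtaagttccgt
Lyz2, chr10:117282273-117282372, minus strand, positions -100 to -1: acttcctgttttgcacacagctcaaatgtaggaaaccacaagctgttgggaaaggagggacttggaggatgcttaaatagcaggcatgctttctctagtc

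In Clec7a the match began 96 bases before the start, in C1qb 30 bases before it, and in Fcgr3 it ended at the base before the start. In Ptprc and Cd68 it began 158 and 225 bases before the start. The window of Cybb, the member with the greatest difference at 72 h, had its 1 match after the start, and those of Lyz2, Mpeg1 and Lcp1 had none.

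Spi1 itself differed less than most of the genes named so far. Its intensity was 122 on doxycycline, then 137 at 24 h, 169.6 at 48 h and 150.2 at 72 h, so all off arrays were above the on array and the 48 h array was the highest. The differences were 0.13, 0.38 and 0.24. Csf1r, by contrast, had differences of 0.62, 0.23 and 1.67, and its 72 h intensity was 3.28 times that on doxycycline.

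The NADPH oxidase genes were unequal. Cybb, which encodes gp91phox, the catalytic subunit that passes electrons to oxygen, read 61.4 on doxycycline, then 248 at 24 h, 204 at 48 h and 334 at 72 h. The differences on this probe set were 1.58, 1.34 and 1.97. Its other probe sets past the filter gave less, 0.88 and 0.57 at 24 h and 0.74 and 0.63 at 48 h, and with the mean over probe sets the 48 h value was 0.90, no longer 2-fold. Cyba, which encodes p22phox, the membrane partner that gp91phox needs, read 542, 586, 708 and 775, higher on each later array but by no more than 0.49. Ncf1, the cytosolic organiser p47phox, read 89.0, 105, 85.3 and 136, with the 48 h array the lowest. Cyba is also made by many cells other than phagocytes.

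The Fc receptors and their signalling adaptors were, except for Fcgr1, highest at 72 h. Fcgr3, an activating low-affinity receptor for IgG, read 142 on doxycycline, then 247 at 24 h, 157 at 48 h and 352 at 72 h. The inhibitory receptor gene Fcgr2b read 728, 1008, 829 and 1192. Fcgr1, the high-affinity receptor CD64, read 100.3, 114, 97.3 and 88.0, and lay below the on array at 48 and 72 h. Fcgr2b and Fcgr3 encode closely related outer domains, and whether their probe sets share signal was not tested.

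Tyrobp and Fcer1g encode small transmembrane adaptors with an immunoreceptor tyrosine-based activation motif (ITAM), through which many myeloid receptors signal. Tyrobp (DAP12) read 413 on doxycycline, then 464 at 24 h, 573 at 48 h and 874 at 72 h, higher on each later array. Fcer1g, the common gamma chain of Fc receptors, read 199, 266, 236 and 381. The adaptors differ at 48 h, where Tyrobp was above its 24 h value by 0.29 and Fcer1g was below its own by 0.15. Trem2, a lipid-sensing receptor that signals through Tyrobp, read 113 on doxycycline, then 87.7 at 24 h, 113 at 48 h and 192 at 72 h. It was the only member below the on array at 24 h.

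**Figure D2:**
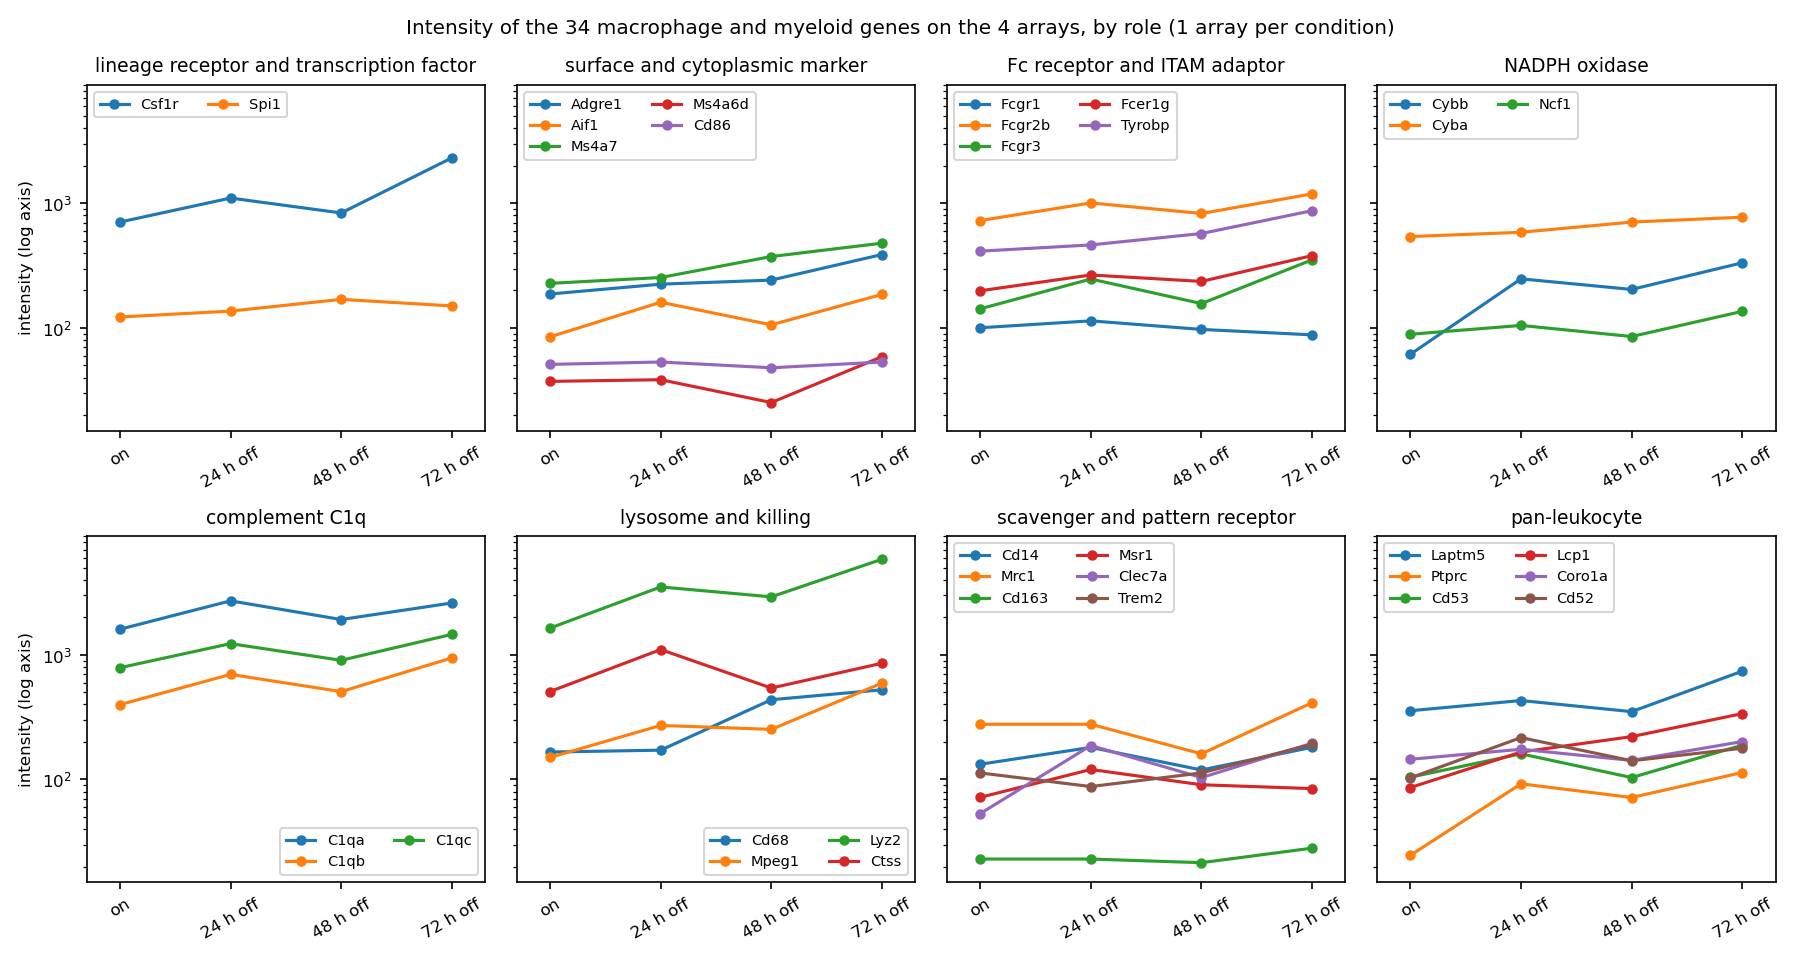
Intensity (log axis) of the 34 genes on the on, 24, 48 and 72 h arrays, 1 array per condition, in 8 panels by role; lines join the arrays of 1 gene. Of the 33 genes past the filter, 26 are highest at 72 h and 23 have a lower value at 48 h than at both 24 h and 72 h.

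The C1q genes had near-parallel profiles. C1qa, C1qb and C1qc encode the chains of the recognition subunit of classical complement, which macrophages make locally. C1qa read 1606 on doxycycline, then 2715 at 24 h, 1922 at 48 h and 2609 at 72 h. For C1qb the values were 398, 697, 507 and 945, and for C1qc 789, 1231, 904 and 1460.4. All 3 were lower at 48 h than at 24 h, by between 0.43 and 0.49, and higher again at 72 h by between 0.43 and 0.86. They differed in which off array was highest, since C1qa was 0.06 lower at 72 h than at 24 h whereas C1qb was 0.42 and C1qc 0.24 higher.

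The lysosomal and killing genes did not follow a single course. Lyz2, lysozyme M of macrophages and neutrophils, read 1641 on doxycycline, then 3511 at 24 h, 2923 at 48 h and 5858 at 72 h. Mpeg1, the pore-forming perforin-2, read 150.2, 271, 252 and 594, and its 72 h value was 3.95 times that on doxycycline. Both genes were above the on array at every time and highest at 72 h.

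Ctss, cathepsin S, a protease that trims the invariant chain for antigen presentation, read 508 on doxycycline, then 1103 at 24 h, 542 at 48 h and 857 at 72 h. It was thus highest at 24 h, and its difference of -0.98 from 24 to 48 h was the lowest of the 33 members. Cd68 did the opposite, with a difference of 0.04 at 24 h off against on and of 1.20 at 48 h against 24 h, the highest of the members for that step. Lyz1 is a close copy of Lyz2, and its brightest probe set read 1259, 2819, 2022 and 4393, in the same order of arrays as Lyz2. Signal shared between the copies cannot be told apart.

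Among scavenger and pattern receptors, Clec7a had the greatest differences from the on array at 24 and 72 h, 1.36 and 1.42. Clec7a, which encodes dectin-1, a receptor for fungal beta-glucan, read 53.2 on doxycycline, then 187 at 24 h, 103 at 48 h and 195 at 72 h. Cd14, the co-receptor for bacterial lipopolysaccharide, read 132, 181, 119 and 181. Mrc1, the mannose receptor CD206, read 277 on doxycycline, exactly the same at 24 h, 161 at 48 h and 413 at 72 h. Its difference of -0.68 at 48 h off against on was the lowest of any member at any time.

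Msr1, the class A scavenger receptor, read 71.8, 120.2, 90.6 and 84.4, so on this probe set it was highest at 24 h and closest to the on array at 72 h. Of its other probe sets past the filter, 1 was at 0.35, 0.36 and 0.35 at 24, 48 and 72 h, and 1 at 0.43, 0.00 and -0.06. Cd163 read 23.0, 23.0, 21.5 and 28.1. Those levels lay around the filter and showed no clear order. Mrc1 and Cd163 are both used to mark alternatively activated or resident macrophages, and only Mrc1 was at a level that could be followed.

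Other macrophage markers were all above the on array at 72 h, although Cd86 by 0.04 only. Aif1, the calcium-binding protein IBA1, read 84.8 on doxycycline, then 161 at 24 h, 106 at 48 h and 186 at 72 h. Ms4a7, a tetraspan membrane protein of macrophages, read 228, 254, 374 and 479, higher on each later array. Its relative Ms4a6d read 37.2, 38.4, 25.2 and 58.8, with the 48 h array the lowest. Cd86, a co-stimulatory ligand for T cells, read 51.0, 53.3, 47.9 and 53.3, with differences of 0.04, -0.05 and 0.04 from the on array.

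The genes grouped as pan-leukocyte are expressed by many kinds of blood-derived immune cell. They were above the on array at 24 and 72 h, 6 of 6 each time (49.0% and 46.8% of all genes). At 48 h 3 of 6 were above it (45.3%). Ptprc, which encodes CD45, a phosphatase on all nucleated blood cells, read 24.6 on doxycycline, then 92.3 at 24 h, 71.6 at 48 h and 114 at 72 h. The on value lay just under the filter level, so the size of its differences, 1.14, 0.87 and 1.36, depends on the pseudocount. Laptm5, a lysosomal membrane protein of blood cells, read 356, 430.0, 350.2 and 739.8.

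Cd53, a leukocyte tetraspanin, read 104 on doxycycline, then 161 at 24 h, 104 at 48 h and 189 at 72 h. Coro1a, an actin regulator of leukocytes, had a like profile of 145, 175, 142 and 201. Cd52, a small surface glycoprotein, read 103, 217, 141 and 178 and was highest at 24 h. Lcp1, the actin-bundling L-plastin, read 86.1, 166, 221 and 338, higher on each later array of this probe set. Its other probe set, also past the filter, read 109, 148, 242 and 220, lower at 72 h than at 48 h. At 48 h off against on that probe set was at 0.96, below the 2-fold limit.

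Comparisons between off arrays do not use the on array. From 24 to 48 h, 25 of 33 members were lower and 8 were higher, with a median of -0.26, whereas 44.3% of all genes were lower and 44.8% higher with a median of 0.00. The 8 higher ones were Cd68, Ms4a7, Lcp1, Tyrobp, Trem2, Cyba, Spi1 and Adgre1. Only Cd68 was 2-fold higher (0.569% of all genes) and none was 2-fold lower (1.01%). From 48 to 72 h, 30 members were higher (47.1% of all genes) with a median of 0.62, and 3 were lower, Fcgr1, Msr1 and Spi1.

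The 5 members that were 2-fold higher at 72 h than at 48 h (0.917% of all genes) were Csf1r, Mrc1, Mpeg1, Fcgr3 and Laptm5, and none was 2-fold lower (0.214%). From 24 to 72 h, 27 members were higher (46.5% of all genes) and the median was 0.37. Cd68, Csf1r and Mpeg1 were 2-fold higher over that span (1.97% of all genes), by 1.45, 1.05 and 1.04, and none was 2-fold lower (1.85%).

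**Figure D3:**
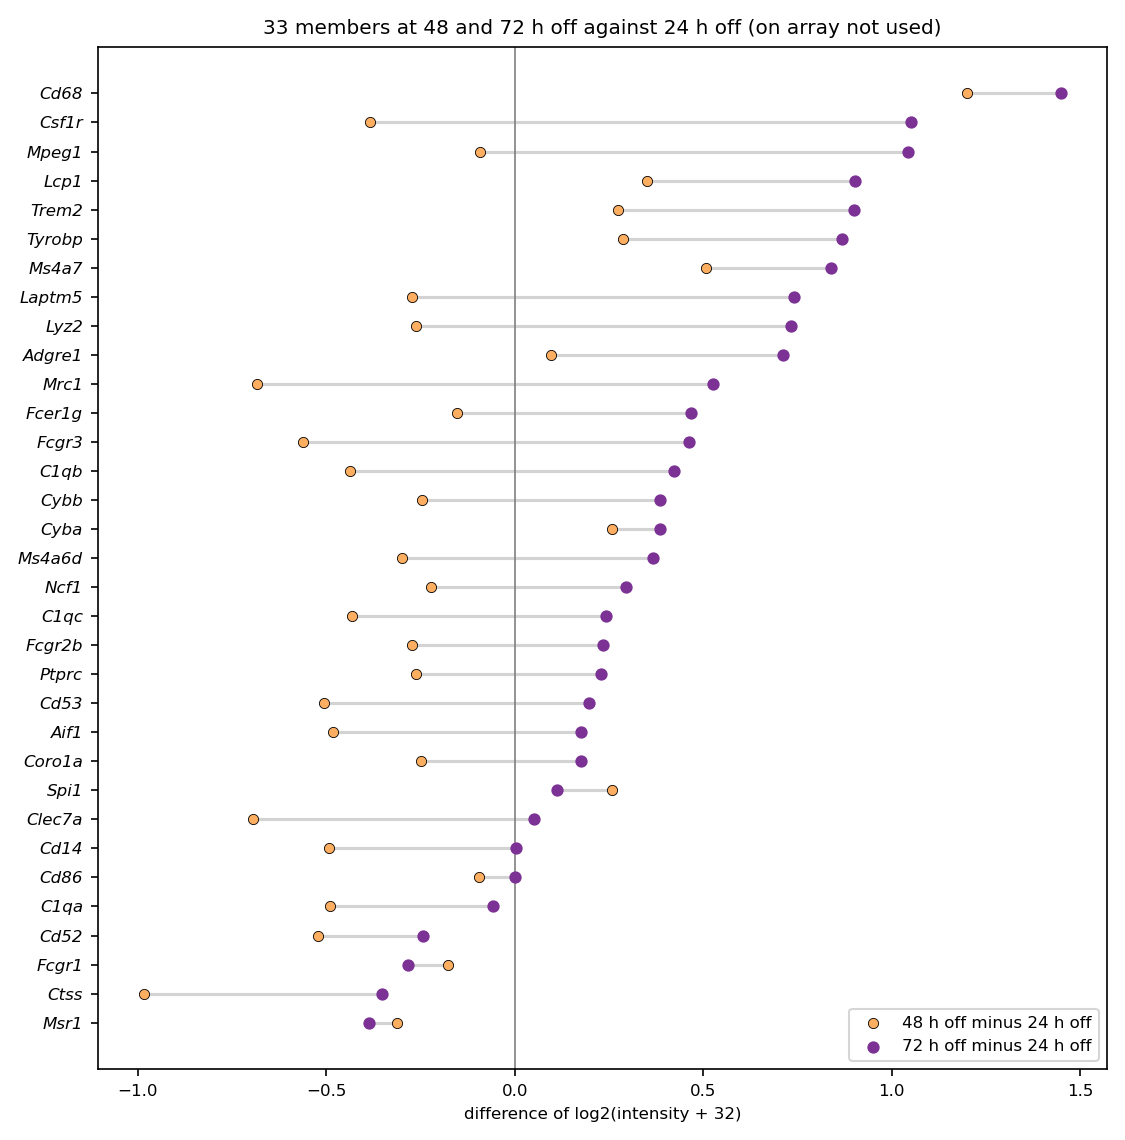
Difference of log2(intensity + 32) at 48 h (orange) and 72 h (purple) off doxycycline against 24 h off, for the 33 members past the filter, sorted by the 72 h value. At 48 h 25 members lie left of 0 and at 72 h 27 lie right of it, with Cd68 highest in both.

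A dip at 48 h, below both 24 and 72 h, was present in 23 of 33 members and in 24.8% of all genes. An intensity higher on each later array was present in 6 members, Cd68, Adgre1, Tyrobp, Cyba, Ms4a7 and Lcp1, and in 7.29% of all genes. For Lcp1 it held on the brightest probe set only. The 72 h array was the highest for 26 members (26.9% of all genes) and the on array the lowest for 23 (27.3%). The 5 members highest at 24 h were Ctss, C1qa, Cd52, Msr1 and Fcgr1 (22.1% of all genes), and the 1 highest at 48 h was Spi1 (17.1%). The 48 h array was the lowest for 8 members (19.5% of all genes), the 24 h array for Trem2 (21.2%) and the 72 h array for Fcgr1 (21.7%). Equal values on at least 2 arrays, which were present in 36.8% of all genes, were found in 3 members, Mrc1, Trem2 and Cd86.

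Of the 34 members, 16 had more than 1 probe set. At 24 h off against on, 18 of the 20 other probe sets past the filter had the sign of the brightest, and at 72 h 16 of 20. At 48 h it was 10 of 20, so the small differences of that time rest in part on the choice of probe set. Csf1r was at 1.67 at 72 h on its brightest probe set and at 1.47 and 0.92 on the others. Cybb was at 1.97, 1.37 and 0.57, and C1qb at 1.18, 1.27 and 1.41. Lcp1 had another probe set at 0.84 against 1.65.

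Fcgr2b was the clearest disagreement. At 48 h off against on its brightest probe set was at 0.18 and 3 others past the filter were at -0.22, -0.26 and -0.53. At 72 h its probe sets past the filter lay between 0.69 and 0.87. Laptm5 ranged between 0.00 and 1.86 at 72 h among probe sets past the filter. Fcgr1 was at -0.14 on its brightest probe set and at 0.33 on the other, so its direction at 72 h is uncertain. Ncf1 was at 0.47 at 72 h on its brightest probe set and at 0.18 and -0.12 on its others, both past the filter. Another Ptprc probe set, dim on all arrays, was at -0.07.

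**Figure D4:**
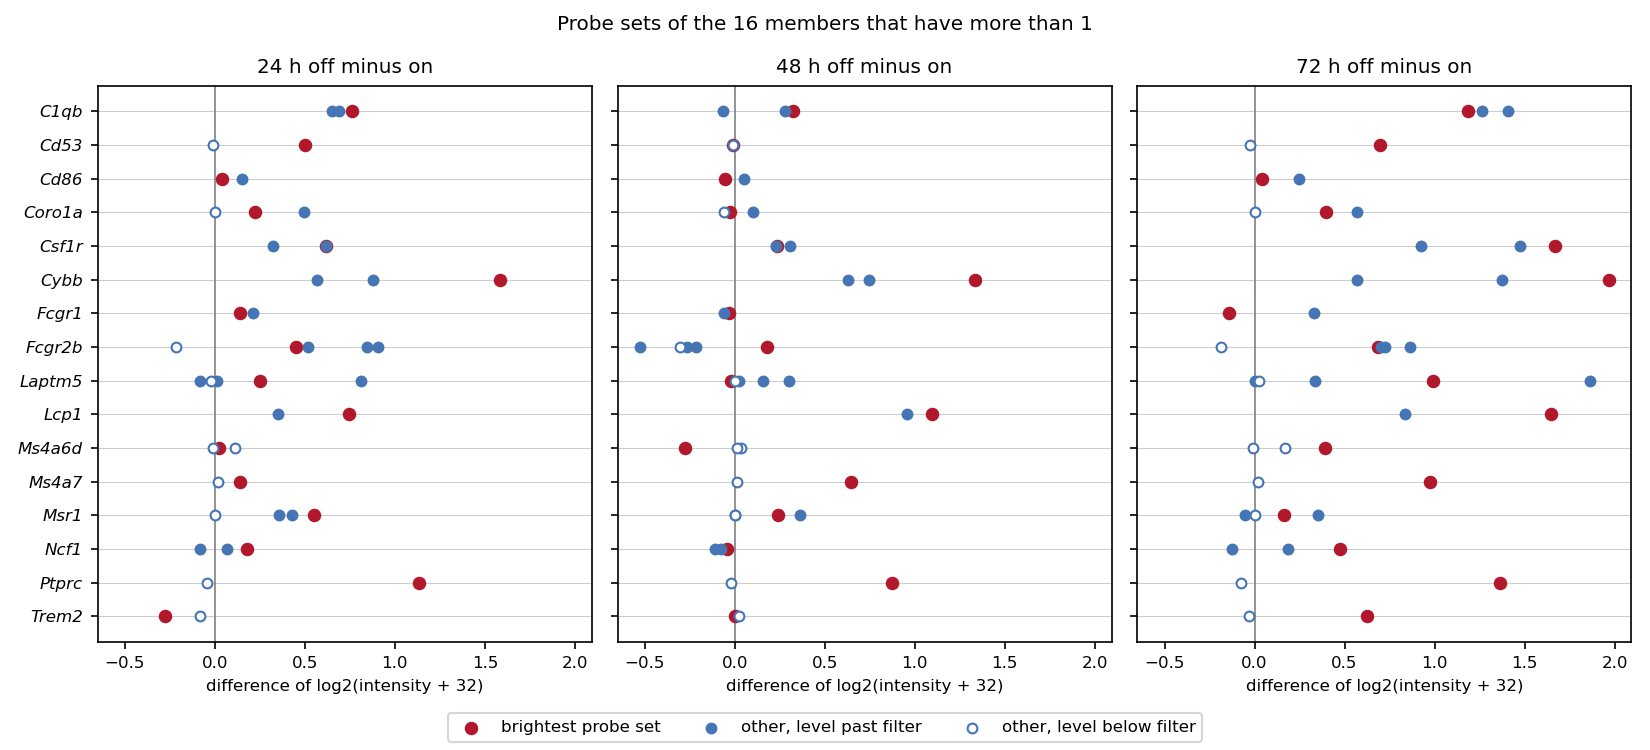
Difference of log2(intensity + 32) for each probe set of the 16 members with more than 1, in 3 panels for 24, 48 and 72 h off against on. Red points are the brightest probe set, filled blue points others past the level filter and open points others below it; at 48 h the Fcgr2b probe sets lie on both sides of 0, from -0.53 to 0.18.

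Other genes of macrophage biology, taken from lists drawn up by function, had medians closer to the on array than that of the members, although single genes differed as much. The scale shrinks the differences of dim genes, and the first 2 of these lists were dimmer. Their sums on doxycycline were 1403 over 15 genes and 1453 over 16, against 10441 over the 34 members and 10427 over 20 uptake and tissue residence genes. The part of the scale in this was not tested. Of 14 ligand, receptor and transcription factor genes past the filter, 11 were above the on array at 24 h and 9 at 48 and 72 h. Among all genes 49.0%, 45.3% and 46.8% were above in turn. The medians of the 14 were 0.14, 0.08 and 0.13. Maf, a transcription factor of resident macrophages that other cells also express, was the only one 2-fold higher, at 72 h, against 2.29% of all genes. It read 68.9 on doxycycline and 108, 167 and 317 at 24, 48 and 72 h. Irf8, which works with PU.1, read 67.5, 108, 96.2 and 158. The CSF1 receptor ligands differed in direction. Il34 was lower off doxycycline, at 42.3, 28.0 and 42.3 off it against 77.8 on it, and Csf1 was higher, at 165, 163 and 169 off it against 134 on it. Csf2ra, a chain of the GM-CSF receptor, read 60.3 and then 86.3 on all 3 off arrays, a tie.

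Of 15 further NADPH oxidase and ITAM signalling genes, 13 were above the on array at 24 h, 8 at 48 h and 13 at 72 h. Among all genes 49.0%, 45.3% and 46.8% were above in turn. The medians of the 15 were 0.18, 0.01 and 0.25. Sirpa, the receptor for the "don't eat me" signal CD47, read 244 on doxycycline and 385, 440 and 563 at 24, 48 and 72 h. The adaptor gene Blnk read 58.7, 77.3, 125 and 154. These 2 of the 15 were 2-fold higher at 72 h, at 1.11 and 1.03, against 2.29% of all genes. Rac2, the small GTPase of the oxidase, read 104, 143, 103 and 146, and Clec4n, which encodes dectin-2, read 57.5, 97.9, 53.9 and 69.2.

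Of 18 uptake and tissue residence genes, 9, 8 and 11 were above the on array at 24, 48 and 72 h (49.0%, 45.3% and 46.8% of all genes). The medians were 0.04, -0.02 and 0.28. C3ar1, the receptor for the complement fragment C3a, read 74.9 on doxycycline and 134, 162 and 283 off it. At 72 h it was 2-fold higher (1.56), as was Gas6 (1.52), a bridge between dying cells and TAM receptors, while Apoe, an apolipoprotein that macrophages secrete, was at 0.98 and the TAM receptor gene Axl at -0.98. Gas6, Apoe, Axl and Csf1 were named after their values were seen. Itgax, the integrin CD11c, read 38.5, 81.1, 72.6 and 73.4. Cd36 read 29.6, 38.2, 38.7 and 86.7, but it is also abundant in fat and capillary cells. Mfge8, a bridge between dying cells and phagocytes, was lower off doxycycline, at 1803 on it and 1462, 1173 and 1277 off it.

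Inflammatory and alternative activation genes had medians near those of all genes. Of 14 inflammatory genes, 5, 4 and 5 were above the on array in turn (49.0%, 45.3% and 46.8% of all genes), with medians of -0.07, 0.00 and -0.03. None was 2-fold higher (0.266%, 0.754% and 2.29% of all genes) or lower (0.0666%, 1.04% and 1.63%). For 14 genes, none lies near those shares. Tnf read 71.6 on doxycycline and 55.0, 59.0 and 60.5 off it, Tlr4 78.0 and 62.0, 66.7 and 57.4, and Ptgs2 31.5 and 29.4, 22.5 and 17.7. Casp1 read 47.1 and then 84.4 on all off arrays. Of 12 alternative activation genes, 4, 5 and 5 were above the on array (49.0%, 45.3% and 46.8% of all genes), with medians of -0.04, -0.06 and 0.00.

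Within that second list single genes differed widely. Slc40a1, the iron exporter ferroportin of macrophages and other cells, read 26.8 on doxycycline and 38.1, 76.5 and 262 at 24, 48 and 72 h. Tgfb1, a growth factor made by tumour cells as well as macrophages, read 666 and then 433, 262 and 229.8. Vegfa read 249.5 and then 231, 207 and 149, and Clec10a 80.3 and then 62.7, 57.0 and 82.6. Arg1, arginase 1, was named after its values were seen and was 2-fold higher at 24 h only, reading 40.8, 154, 21.8 and 17.2.

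Neutrophil, dendritic cell and lymphoid markers lay close to the on array. Neutrophil markers (9 past the filter) had medians of -0.06, -0.03 and -0.02, dendritic cell markers (6) of 0.02, 0.02 and 0.01, and lymphoid markers (9) of 0.03, 0.01 and 0.01. None of the 3 lists held a gene 2-fold higher (0.266%, 0.754% and 2.29% of all genes) or lower (0.0666%, 1.04% and 1.63%) than the on array. For so few genes, none lies near those shares, and the scale shrinks the differences of dim genes. Their summed intensities spanned 455 to 485, 417 to 444 and 560.2 to 603 over the 4 arrays, and 2 to 5 of their markers per list and array read below the filter level. Of the 4 neutrophil markers named by rule, Lcn2 read 39.4 on doxycycline and 29.9, 33.1 and 36.4 off it, and Mpo, Ltf and Prtn3 differed from the on array by at most 0.16. In the lymphoid list Cd3e read 137, 127, 112 and 114, and Cd79a, a B cell receptor chain, 43.5, 48.7, 75.8 and 46.2.

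Monocyte markers (6 past the filter) had medians of -0.02, -0.04 and 0.20. Plac8 read 170, 337, 165 and 495 on the on, 24, 48 and 72 h arrays and was 2-fold higher at 72 h (1.39), and F13a1 276, 249.9, 166 and 391. Ccr2, the receptor by which monocytes enter tissue, was lower off doxycycline, at 169 on it and 117, 129 and 129 off it. Mast cell markers (7) were above the on array in 5, 6 and 6 cases at 24, 48 and 72 h (49.0%, 45.3% and 46.8% of all genes). Their medians were 0.17, 0.18 and 0.17. Tpsab1, a tryptase, read 112, 292, 259 and 149 and was 2-fold higher at 24 h (1.17) and 48 h (1.01). Cpa3, a mast cell carboxypeptidase, read 36.1, 71.6, 86.3 and 67.7.

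On the 72 h array, where most members were highest, markers of muscle, fat and stroma were also higher. Of 12 skeletal muscle markers measured, 9 were 2-fold higher at 72 h (2.29% of all genes) and Tnni2 was at 0.67. The summed intensity of the 12 on the on, 24, 48 and 72 h arrays was 521, 837, 472 and 5797. Myh1 and Myh2, at -0.08 and 0.08, did not pass the level filter. Since the filter is on the mean of the 4 arrays, some muscle genes passed through the 72 h array alone, Myh4 (470.4 at 72 h off against 11.5 on) and Tnnt3 (91.0 against 18.6) among them, so no median is given. Of 8 adipocyte markers measured, Adipoq, Fabp4 and Plin4 were 2-fold higher at 72 h (2.29% of all genes). Lipe was at 0.08 and Retn at -0.07. Cidec at 0.40, Lep at -0.12 and Pck1 at -0.08 did not pass the level filter. The adipocyte sums were 572, 327, 686 and 2130, of which Fabp4 alone gave 203, 70.8, 323 and 1234. Fibroblast markers had medians of -0.18, 0.49 and 1.69 and sums over 10 genes of 16652, 17277, 34912 and 62390. Of the 10, 6 were 2-fold higher at 72 h (2.29% of all genes) and 1, Pdgfra, was below the on array, at -0.57. Most of the sums came from Col1a1, Col1a2 and Col3a1. They read 3797, 4728.5 and 6197 on doxycycline and 18005, 16226.5 and 19970 at 72 h off. Pdgfra and Col3a1 were named after their values were seen. Endothelial markers had medians of -0.06, -0.11 and 0.39 and sums over 12 genes of 874, 789, 782 and 1225. The part of the amount of host tissue in the piece in the members' 72 h values was not tested.

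At 24 h, where 31 of 33 members were above the on array, the fat, fibroblast and endothelial medians were below it. Some muscle genes were above it, Acta1 2-fold (284 at 24 h off against 47.5 on), Tnnc2 by 0.72, Mylpf by 0.44 and Atp2a1 by 0.32, and the muscle sum was 837 at 24 h off against 521 on. The members' own summed intensity over 34 genes was 10441 on doxycycline and 16825, 13816 and 23467 at 24, 48 and 72 h. Keratinocyte markers (6 past the filter) had medians of -0.09, -0.01 and -0.01, and Pkp1 was the one with a 2-fold difference, reading 608 on doxycycline and 333, 283 and 169 off it.

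The tumour label was checked on melanocyte genes. Sox10, a transcription factor of the melanocyte lineage, read 3771 on doxycycline and 3613, 4681 and 3844 off it, while the pigment genes Tyr and Tyrp1 read below the filter level of 24.9 on all 4 arrays. The list's medians (7 genes past the filter) were -0.21, 0.31 and 0.03. Pmel read 73.1, 49.8, 103 and 199.7, Mitf 50.3, 56.5, 93.1 and 115, and S100b 362, 327, 724 and 575. Mc1r was lower off doxycycline, at 82.8 on it and 64.3, 65.0 and 65.0 off it. So was Dct, at 34.7 on it and 25.8, 27.0 and 25.7 off it. Sox10, Tyr, Tyrp1 and Dct were named after their values were seen.

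**Figure D5:**
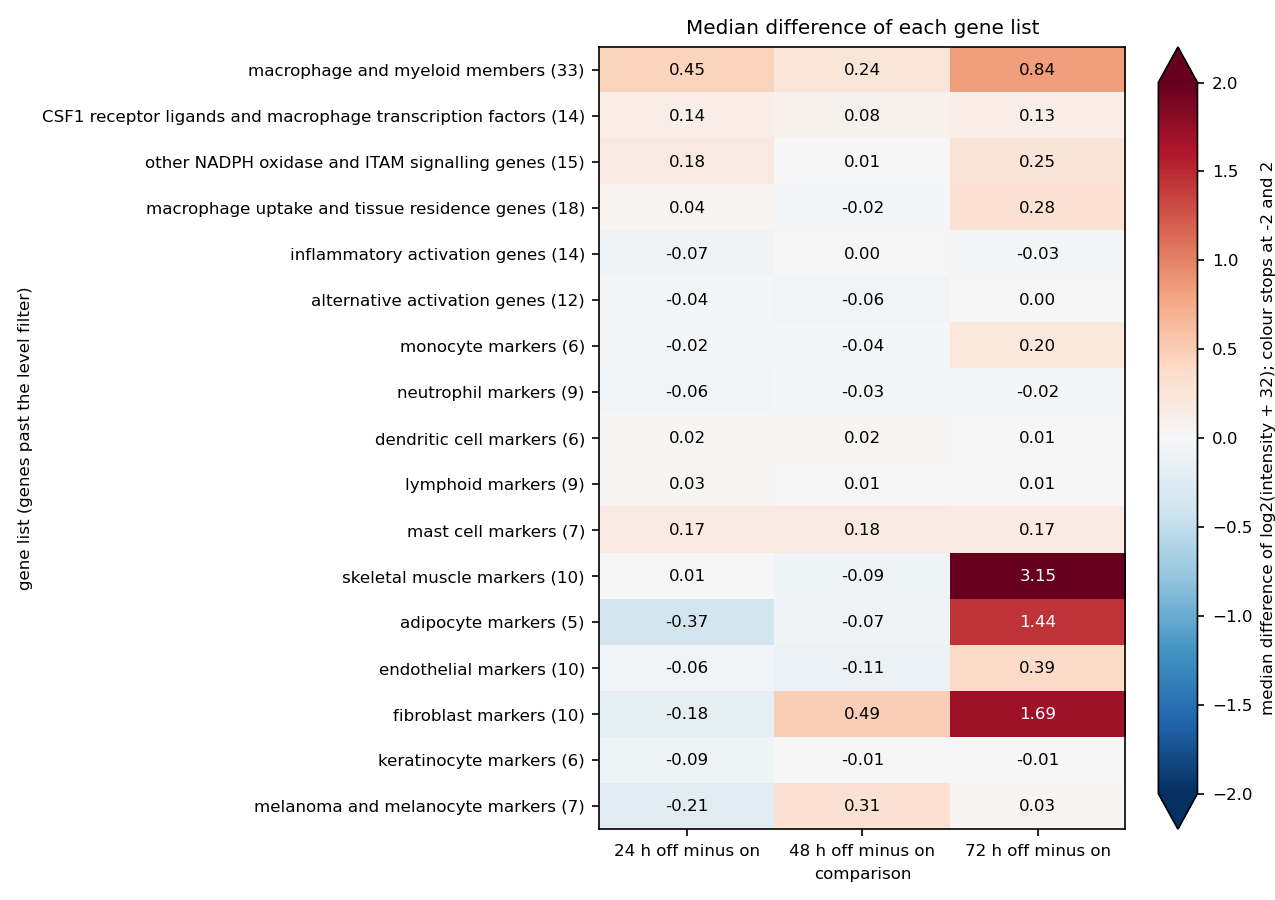
Median difference of log2(intensity + 32) of each gene list (rows, with the number of genes past the filter) at 24, 48 and 72 h off against on (columns). The members stand at 0.45, 0.24 and 0.84; the neutrophil, dendritic cell and lymphoid lists stay within 0.06 of 0, and the fibroblast list reaches 1.69 at 72 h. The still higher muscle value there is over genes of which some passed the filter through that array alone.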

How the data were processed

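The authors deposited linear intensity values, from 6.99 to 19970, for 45037 probe sets on each of 4 arrays. Per the submitters' processing notes MAS5 and RMA were used, with no version or role given, and the scaling behind the values was not stated. Of all probe sets 48.0% had equal values on at least 2 arrays, which shrinks differences.

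Genes were named from the platform annotation: 34945 probe sets had 1 symbol and were used, 932 had several and 9160 had none. The probe set with the highest mean was taken per gene, and genes whose mean reached the 40th percentile over probe sets were kept (13522 of 18193). From the deposited intensities log2(intensity + 32) was computed and arrays were compared by difference, with no test. Counting was tested on simulated differences. Values named by rule were all members, 4 genes of each of 16 other lists with the greatest mean difference, and Nras. Where fewer than 4 are printed, the rest enter only the list's counts, medians or sums. The members and lists were chosen with earlier results of these data known. The planned display of Tyrobp and Fcer1g protein sequences was left out. Alternatives were a smaller, a larger and no pseudocount, quantile normalization, median centring, other level filters, the mean over probe sets, and leaving out probe sets ending in _x_at or _s_at or members with ties. Python 3.11.15, pandas 2.3.3, NumPy 2.4.6 and Matplotlib 3.10.9 were used.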

Additional observations from a re-analysis of the deposited data

How the results depend on the processing

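No paired analysis was possible because each condition had 1 array and no test was made. Over the 10 alternatives the members' median difference lay between 0.31 and 0.53 at 24 h off against on, 0.17 and 0.28 at 48 h and 0.64 and 0.89 at 72 h. In turn 28 to 32, 23 to 25 and 28 to 33 members were above the on array, of the 30 to 34 that a setting counted. The 28 at 24 h and at 72 h was of 30 members, counted without probe sets ending in _x_at or _s_at. The pseudocount mattered most. Shares over all genes were computed at the main setting only. With the largest pseudocount, 4 times the main one, 1, 0 and 7 members were 2-fold higher at 24, 48 and 72 h off against on, the 72 h median was 0.64, and 0, 1 and 1 were 2-fold higher at 48 h against 24 h, 72 h against 48 h and 72 h against 24 h. With no pseudocount 5 members were 2-fold higher at 72 h than at 24 h. With a pseudocount of 8, with none, or with median centring, 1 member was 2-fold lower at 48 h than at 24 h, against 0 otherwise; Ctss lay just inside that limit. The other counts stayed within 1.5 times, and the other medians within 0.2, of their main values. With no replicate, signal over background and array noise could not be estimated.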

Other observations

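Genes outside the 34 members were ranked by how close their 3 differences from the on array lay to the members' median profile of 0.45, 0.24 and 0.84 (Euclidean distance over the 3 off arrays), a ranking chosen after the values had been seen. The 10 closest were ND5, Clec4a3, Ep300, Cd300c2, Ssh2, P2ry6, Macf1, Ogt, Arhgap45 and Tor1aip1. Clec4a3 and Cd300c2 encode myeloid surface receptors and P2ry6 a nucleotide receptor found on macrophages. Clec4a3 read 25.5 on doxycycline and 44.0, 34.5 and 66.2 at 24, 48 and 72 h, Cd300c2 169 and then 242, 206 and 302, and P2ry6 62.0 and then 93.5, 76.8 and 149. The others include widely expressed genes: the histone acetyltransferase gene Ep300 read 140.0 and then 194, 179.6 and 268, Ogt, the O-GlcNAc transferase, 297 and then 416, 380.4 and 513, and the mitochondrially encoded ND5 2561 and then 3437, 3067 and 4499. The 10 thus held both myeloid receptor genes and widely expressed genes.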
